A study of Homo sapiens with 9 samples.

Results

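The replication-dependent histone genes encode the H1, H2A, H2B, H3 and H4 proteins that package newly made DNA. They were chosen by symbol (H1-1 to H1-6 and every symbol that starts with H2AC, H2BC, H3C or H4C), and 69 of the 20379 genes in the deposited table met this rule. Of the 69 genes, 6 encode H1, 17 H2A, 18 H2B, 13 H3 and 15 H4. They lie in clusters on chromosome 6 (55 genes) and chromosome 1 (13 genes), and H4C16 lies on chromosome 12.

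The cells were HCCLM3, an established line grown from a human hepatocellular carcinoma, and poly(A) RNA was sequenced in 3 groups of 3 libraries each. The groups were cells transfected with siRNA against UXS1, with siRNA against MRPL42, or with the non-targeting siRNA-NC, called control siRNA here. UXS1 makes UDP-xylose for glycosaminoglycan linkers, and MRPL42 is a protein of the mitochondrial ribosome. The libraries carry the letters a, b and c. Separate cultures are not stated for the libraries of a group, so the p-values below reflect a spread that could be technical. All libraries came from 1 cell line. For the siRNA sequences and the time after transfection, nothing was given in the sources used here.

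Replication-dependent histone genes are switched on as cells enter S phase, when NPAT, driven by cyclin E and CDK2, acts at their clusters. Their mRNAs normally end in a conserved stem-loop in place of a poly(A) tail. The stem-loop binding protein SLBP and the U7 snRNP, which holds LSM10 and LSM11, direct the cut just after the stem-loop, and the mRNAs decay when replication ends. Some of these genes also make transcripts that read past the stem-loop to a downstream polyadenylation site, and such transcripts are known from differentiated and non-dividing cells. Selection on poly(A) is known to leave out most histone mRNA, and the levels below are those of the mRNA that stayed in the libraries.

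The stem-loop is the element that sets these mRNAs apart, so 1 member with each form found is printed here. The sequences were read in sense direction from the annotated transcripts of GENCODE 29 (GRCh38), with the letters GGNNCTTNTNAGNGCC as the search pattern. Capitals mark the 16 bases of the stem-loop and lower case the 5 bases on each side, and the member of each form with the highest mean level was taken.
H2AC18: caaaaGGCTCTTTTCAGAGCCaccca
H2BC5: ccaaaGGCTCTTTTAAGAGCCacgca
H2AC11: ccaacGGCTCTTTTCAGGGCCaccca
H3C6: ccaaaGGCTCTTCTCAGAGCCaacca
H4C8: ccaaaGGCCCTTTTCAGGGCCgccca
H4C14: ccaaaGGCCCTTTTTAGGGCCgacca

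Of the 69 genes, 31 held the pattern in an annotated transcript. The form of H2AC18 was shared by 17 genes, that of H4C8 by 5, that of H2BC5 by 4 and that of H4C14 by 3, while the forms of H2AC11 and H3C6 were found in 1 gene each. The stems of H4C8 and H4C14 begin with GGCC and those of the H2A, H2B and H3 genes with GGCT. Of the 19940 protein-coding genes of the annotation, 56 (0.281%) held the pattern, 32 of them under an older histone name starting with HIST. The other 38 genes had no match, and the median length of their longest annotated transcript was 393 bases. Only annotated transcripts were searched, so a stem-loop past an annotated end was missed, and no match does not mean that a gene lacks it. H2BC12, the most abundant member, was one of these 38 genes, with an annotated transcript of 381 bases.

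In 23 of the 31 genes, an annotated transcript ran more than 100 bases past the stem-loop, up to 1917 bases in H2BC26, and 16 of the 23 had AATAAA, the usual polyadenylation signal, or its variant ATTAAA in their last 40 bases. The letters were searched on the sense strand. Of the 23 genes with such a transcript, 10 passed the filter on low counts (about 10 counts in 3 libraries), as did 3 of the 8 genes whose transcripts stop within 100 bases and 4 of the 38 genes without a match. These shares depend on how far each gene is annotated. By RefSeq, 8 genes span more than 1000 bases because of spliced or extended transcripts, and 6 of these 8 passed the filter, as did 11 of the 61 shorter genes. A long annotated transcript alone did not go with a measured level, since H2BC26 and H3C8, whose transcripts run 1917 and 1518 bases past the stem-loop, had 0 counts in every library.

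Most of the family was close to absent and a few members carried nearly all of its level. In all, 59 genes had a count in at least 1 library, 28 had at least 1 count in all 9 libraries and 13 had at least 10 counts in all 9. The 10 genes with 0 counts throughout were H1-6, H2AC1, H2BC1, H2BC10, H2BC26, H3C8, H3C12, H4C6, H4C7 and H4C13. The libraries held 15265959 to 22400560 estimated counts, so a count of 0 allows a level of up to 0.134 to 0.197 CPM (read counts scaled to library size, from 3 counts of the total, counting error only). The number of members with at least 1 count was 50, 47 and 43 in UXS1 siRNA libraries a, b and c, 44, 47 and 50 in MRPL42 siRNA libraries, and 46, 41 and 46 in control siRNA libraries. The 3 groups overlapped in this number. With at least 10 counts asked for, each library held 16 to 20 members.

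Levels were set side by side in TPM, which divides counts by transcript length. TPM was computed from the deposited counts and GENCODE 29 transcript lengths, and the lengths used for the members ran from 297 to 2411 bases, so the order between members depends on which transcripts are annotated. The most abundant member was H2BC12 (chromosome 6, 27138293 to 27146858, minus strand, RefSeq on GRCh38.p14), with a mean of 88.6 TPM over the 9 libraries on a length of 381 bases. It also had the most counts, 2494 over all libraries. It was followed by H4C14 (48.2 TPM), H2AC18 (35.2 TPM), H2AC19 (32.9 TPM), H1-2 (25.3 TPM), H2BC5 (12.5 TPM) and H2AC20 (11.04 TPM), and no other member averaged 10 TPM or more. H2BC21, with 1272 counts on a length of 2194 bases, averaged 7.89 TPM. H2BC12 alone held 28.4% of the summed mean TPM of the 69 genes, the top 5 held 73.8% and the top 10 held 88.3%. H2BC12 had the highest TPM in each of the 9 libraries, from 70.3 TPM in control library b to 169 TPM in control library c. H2AC18 and H2AC19 share their sequence, so the order between them rests on how reads were divided.

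**Figure D1:**
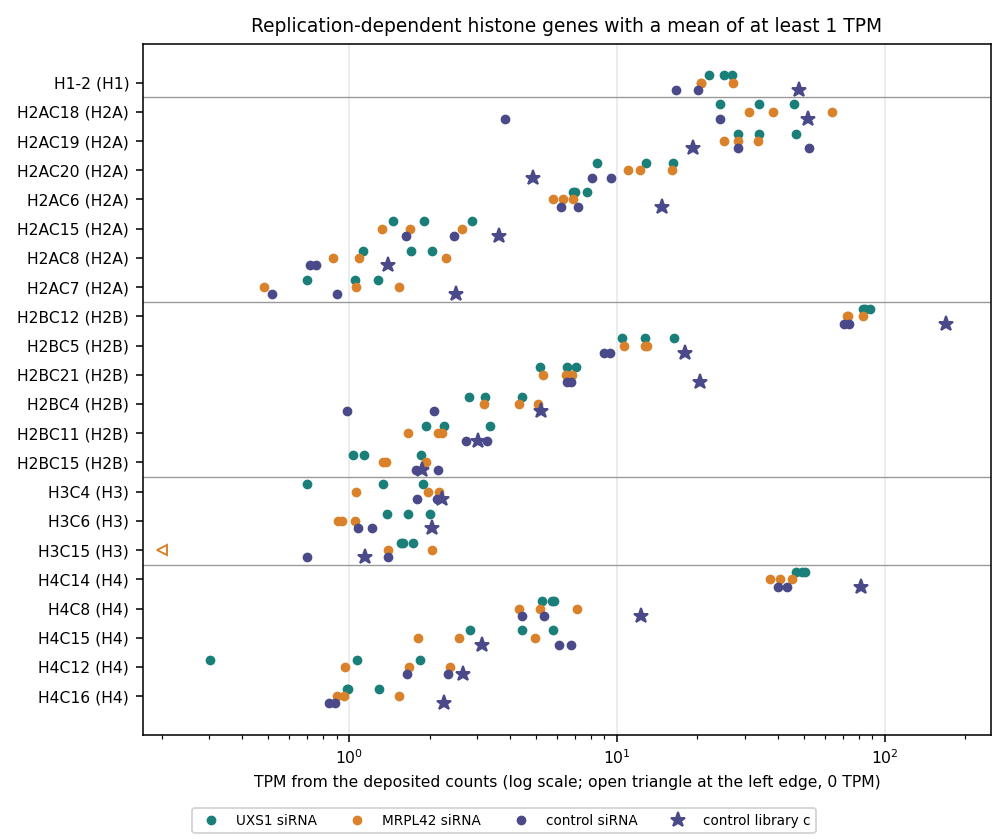
TPM of the 22 members with a mean of at least 1 TPM (x axis, log scale) in each library, grouped by histone class; points are libraries, coloured by siRNA, with control library c as a star and 0 TPM as an open triangle. H2BC12, H4C14, H2AC18 and H2AC19 lie highest, and the star lies to the right of the other 8 libraries for 14 of the 22 members, among them H1-2, H2AC6, H2BC12, H2BC21, H4C14 and H4C8.

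The classes stood at unequal levels. H2B genes held 38.1% of the summed mean TPM, H2A genes 30.4%, H4 genes 20.3%, the linker histone H1 genes 8.55% and H3 genes 2.57%. The H3 share lay between 1.92% and 3.11% in every library, and H3 genes held 3.83% of the members' counts. Among the 13 H3 genes, which encode the replication-dependent H3 proteins, the highest mean was 1.70 TPM in H3C4, whereas the replacement histone gene H3-3B, whose mRNA is polyadenylated, averaged 1474 TPM. H3C4 did not pass the filter on low counts. It had 51.6 counts over all libraries on a length of 411 bases, against 160 counts for H3C15 on 1656 bases. All 50-base stretches of the H3C4 transcript are also found in AL031777.3, which overlaps it, so its level may depend on how reads were divided. The summed level of the 12 replication-independent histone genes measured was 3752 to 4213 TPM per library, against 256 to 484 TPM for the 69 replication-dependent genes.

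The summed level of the 69 genes was 315, 309 and 306 TPM in UXS1 siRNA libraries a, b and c, 311, 269.6 and 296 TPM in MRPL42 siRNA libraries, and 259, 256 and 484 TPM in control siRNA libraries. The UXS1 and MRPL42 siRNA libraries all lay between control libraries a and b, the lowest of the 9, and control library c, the highest. The means were 310.1 ± 4.66 TPM in UXS1 siRNA, 292 ± 21.03 TPM in MRPL42 siRNA and 333 ± 131 TPM in control siRNA (SD, n = 3 each). The ratio to control siRNA was 0.932 for UXS1 siRNA and 0.878 for MRPL42 siRNA, and 1.205 and 1.136 without control library c. In bulk RNA, more cells in S phase and more histone mRNA per cell cannot be told apart. The sums cover only the histone mRNA that stayed after poly(A) selection, and a change in the share that stayed was not tested.

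**Figure D2:**
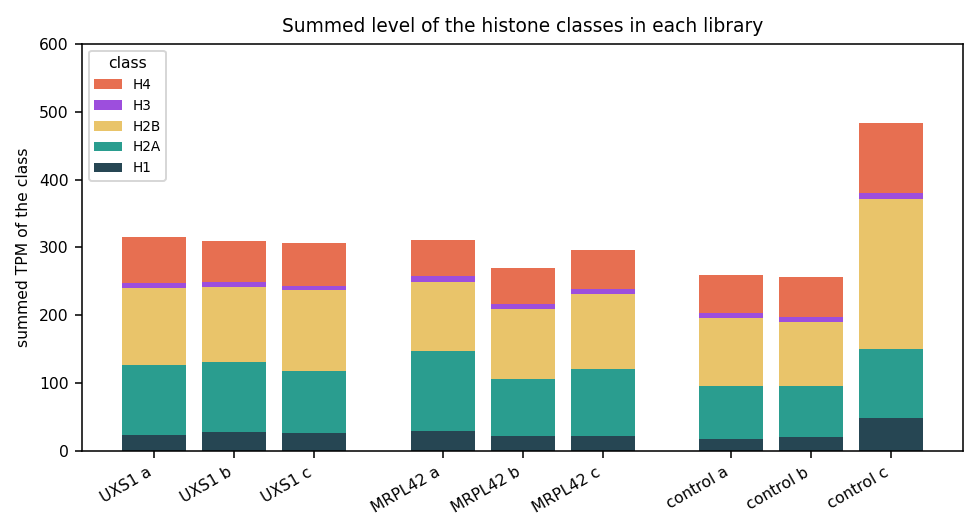
Summed TPM of each histone class (stacked, y axis) in each library. The bar of control library c reaches 484 TPM, where the other 8 libraries lie between 256 and 315 TPM, and the H2B part of that bar is 221 TPM.

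One control library, c, differed from the rest, and this reached the histone genes. Pearson's r of its log2 CPM with the others, across genes, which are not independent replicates, was 0.961 to 0.972, while the other 8 libraries had at least 0.987 with each other. The 11 hepatocyte markers, for the tissue this line comes from, summed to 120.4 to 129 TPM in UXS1 siRNA, 112 to 124 TPM in MRPL42 siRNA and 85.9 to 135 TPM in control siRNA, where the lowest value was that of library c. ALB, the serum albumin gene, was at 3.57 TPM there, against 12.7 and 13.6 TPM in control libraries a and b. HNF4A, of the same list, went the other way. It had 38.5 TPM in control library c, against 21.04 and 20.85 TPM in a and b. The 6 fibroblast markers summed to 46.9 to 51.6, 42.4 to 53.1 and 47.6 to 233 TPM in the same groups, with the highest value in control library c, nearly all of it LUM (206 TPM); COL1A1 stayed at 0.194 TPM there. The 4 endothelial markers summed to 8.003 TPM in control library c and to 18.9 to 26.02 TPM elsewhere, with CDH5 at 0 in every library, and the 5 leukocyte markers to 2.29 and 6.39 to 12.2 TPM. The 2 erythroid markers reached 0.860 TPM at most, in control library c. The part of these differences in the histone values was not tested. Neither siRNA target passed the threshold (edgeR adjusted p = 0.348 for UXS1 and 0.185 for MRPL42). UXS1 averaged 141 ± 3.43 CPM in UXS1 siRNA and 158 ± 18.8 CPM in control siRNA (SD, n = 3 each). MRPL42 averaged 93.1 ± 11.3 CPM in MRPL42 siRNA and 122 ± 23.4 CPM in control siRNA (SD, n = 3 each). The exact two-sided permutation p was 0.2 for each, where 3 against 3 cannot go below 0.1. Control libraries a, b and c had 144.2, 150.9 and 179.7 CPM of UXS1. They had 100.4, 117.7 and 146.7 CPM of MRPL42. Without control library c the difference of means changed from -17.2 to -6.49 CPM for UXS1 and from -28.5 to -15.96 CPM for MRPL42.

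Control library c had a net 226 TPM more histone level than the mean of a and b. The differences of H2BC12, H2BC21, H1-2, H4C14 and H2AC6 came to 83.6% of this net sum. These were not the largest differences, as H2AC18 stood 37.6 TPM and H2BC5 8.73 TPM higher, against 8.05 TPM for H2AC6. The net sum also holds falls, such as -21.04 TPM for H2AC19, which raise the share. The rise was wider than these members. In CPM, 10 of the 17 members that passed the filter exceeded 1.5 times the mean of control libraries a and b. The summed TPM of control library c was 1.88 times the mean of a and b. The class ratio was 2.49 for H1, 2.275 for H2B, 1.83 for H4, 1.33 for H2A and 1.17 for H3. H2BC12 stood at 169 TPM in control library c, against a mean of 71.98 TPM in a and b. The ratio was 2.605 for H1-2, 3.06 for H2BC21 and 2.51 for H4C8, and it was 0.553 for H2AC20. For the near-identical copies it was 3.67 for H2AC18 and 0.478 for H2AC19. This pair summed to 17.5 CPM in control library c, against 13.4 and 12.4 CPM in a and b. For the copies H4C14 and H4C15 the ratio was 1.98 and 0.488. Their sum was 22.9 CPM in control library c, against 12.8 and 13.9 CPM in a and b. The ratio of a single copy depends on how reads were divided. The 52 members that did not pass the filter on low counts summed to 26.3 TPM in control library c, above the 16.7 to 22.6 TPM of the other libraries.

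For the comparisons between groups, 17 of the 69 genes passed the filter and were tested: H1-2, 5 H2A genes, 6 H2B genes, 2 H3 genes and 3 H4 genes. A member had to reach the filter in some libraries to be tested, so the 17 do not stand for the family. The 42 others with counts had mean levels of 0.0354 to 2.18 TPM and at most 68 counts over all libraries. Values per library below are CPM, scaled to the TMM-adjusted library total. No member passed an edgeR adjusted p of 0.05 in any comparison. In UXS1 siRNA against control siRNA 0 of 17 members were called, where 2 of the 12657 genes tested were (0.0158%). In MRPL42 siRNA against control siRNA 0 of 17 members and 0 of 12657 genes (0%) were called. The unadjusted p was below 0.05 for 1 of 17 members in each of these comparisons, and for 2249 and 2561 of all genes. DESeq2 gave 9 and 8 of the 17 members an adjusted p and called 0 of them, where 460 of 11415 genes (4.03%) and 677 of 11171 genes (6.06%) were called.

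The only H1 gene tested was H1-2, a linker histone that binds DNA between nucleosomes (chromosome 6, 26055740 to 26056470, minus strand). It had 6.53, 8.18 and 7.32 CPM in UXS1 siRNA libraries a, b and c, 8.66, 5.76 and 6.34 CPM in MRPL42 siRNA libraries, and 4.54, 5.49 and 13.7 CPM in control siRNA libraries. Control library c was the highest of the 9, and control libraries a and b were the lowest. The log2 fold change was -0.11 (SE 0.37, adjusted p = 0.899) in UXS1 siRNA and -0.20 (SE 0.37, adjusted p = 0.777) in MRPL42 siRNA, and 0.55 and 0.45 without control library c (adjusted p = 0.16 and 0.219).

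H2A proteins pair with H2B on the outside of the nucleosome. H2AC20 (chromosome 1, 149886918 to 149887411, plus strand) had 2.92, 2.37 and 1.49 CPM in UXS1 siRNA libraries, 3.10, 1.88 and 2.27 CPM in MRPL42 siRNA libraries, and 1.34, 1.58 and 0.849 CPM in control siRNA libraries. All MRPL42 siRNA libraries lay above all control siRNA libraries, and UXS1 siRNA library c lay below control siRNA library b. Its log2 fold change had the smallest p among the members: 0.85 in UXS1 siRNA (SE 0.33, unadjusted p = 0.0274, adjusted p = 0.232) and 0.94 in MRPL42 siRNA (SE 0.33, unadjusted p = 0.018, adjusted p = 0.178). With the offset for transcript length described below, the same values were 0.11 (adjusted p = 0.876) and 0.15 (adjusted p = 0.794). H2AC6 (chromosome 6, 26124172 to 26124690, plus strand) had 5.56, 5.05 and 4.92 CPM in UXS1 siRNA libraries, 4.46, 4.27 and 5.12 CPM in MRPL42 siRNA libraries, and 4.75, 4.08 and 10.2 CPM in control siRNA libraries. Control library c stood alone, as the other 8 libraries lay between 4.08 and 5.56 CPM. H2AC11 ranged from 0.648 to 1.15 CPM in UXS1 siRNA, from 0.711 to 0.792 CPM in MRPL42 siRNA and from 0.636 to 0.929 CPM in control siRNA, and the groups overlapped.

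Of the H2B genes, H2BC12 had 14.8, 14.9 and 15.2 CPM in UXS1 siRNA libraries, 13.8, 12.03 and 15.1 CPM in MRPL42 siRNA libraries, and 11.9, 11.4 and 28.8 CPM in control siRNA libraries. The UXS1 siRNA libraries were tightly grouped, above control libraries a and b and below c. The log2 fold change was -0.22 (SE 0.31, adjusted p = 0.745) in UXS1 siRNA and -0.35 (SE 0.31, adjusted p = 0.537) in MRPL42 siRNA. H2BC21 (chromosome 1, 149884459 to 149886682, minus strand), whose annotated transcript runs 1729 bases past the stem-loop, had 7.10, 5.37 and 6.47 CPM in UXS1 siRNA libraries, 5.75, 6.53 and 6.76 CPM in MRPL42 siRNA libraries, and 6.29, 6.09 and 19.9 CPM in control siRNA libraries. Outside control library c the libraries of all groups overlapped. Its log2 fold changes of -0.77 in UXS1 siRNA (adjusted p = 0.359) and -0.76 in MRPL42 siRNA (adjusted p = 0.319) stood at 0.0047 and 0.03 without that library.

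The lower H2B genes followed both patterns. H2BC5 had 3.09, 3.89 and 4.73 CPM in UXS1 siRNA libraries, 4.13, 3.56 and 3.27 CPM in MRPL42 siRNA libraries, and 2.58, 2.45 and 5.14 CPM in control siRNA libraries. H2BC4 had 1.26, 0.938 and 0.777 CPM in UXS1 siRNA libraries, 0.969, 1.36 and 1.27 CPM in MRPL42 siRNA libraries, and 0.258, 0.543 and 1.42 CPM in control siRNA libraries. In both genes control libraries a and b were the lowest of the 9 and c the highest. H2BC15 (0.516 to 0.906, 0.647 to 1.03 and 0.815 to 0.980 CPM in UXS1, MRPL42 and control siRNA) and H2BC11 (0.583 to 1.03, 0.528 to 0.711 and 0.774 to 0.924 CPM) did not have their highest value in control library c. H2BC11 was the 1 tested member whose MRPL42 siRNA libraries all lay below all control siRNA libraries (log2 fold change -0.47, SE 0.29, adjusted p = 0.378).

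H3 and H4 form the core tetramer of the nucleosome. H3C6 had 1.20, 1.03 and 1.42 CPM in UXS1 siRNA libraries, 0.711, 0.647 and 0.792 CPM in MRPL42 siRNA libraries, and 0.722, 0.815 and 1.43 CPM in control siRNA libraries. Here the UXS1 siRNA libraries all lay above the MRPL42 siRNA libraries, and the share of all genes doing so was not counted. H4C14 (chromosome 1, 149832657 to 149833052, plus strand) had 13.5, 13.6 and 12.3 CPM in UXS1 siRNA libraries, 10.7, 10.4 and 12.5 CPM in MRPL42 siRNA libraries, and 9.87, 10.7 and 21.3 CPM in control siRNA libraries. Its log2 fold change was -0.09 (SE 0.26, adjusted p = 0.883) in UXS1 siRNA and -0.31 (SE 0.26, adjusted p = 0.505) in MRPL42 siRNA. All UXS1 siRNA libraries lay above control libraries a and b and below c. H4C8 (chromosome 6, 26285126 to 26285534, minus strand) had 1.89, 1.79 and 1.88 CPM in UXS1 siRNA libraries, 2.52, 1.62 and 1.48 CPM in MRPL42 siRNA libraries, and 1.34, 1.63 and 3.93 CPM in control siRNA libraries. Its log2 fold change was -0.31 (SE 0.39, adjusted p = 0.706) in UXS1 siRNA and -0.30 (SE 0.40, adjusted p = 0.674) in MRPL42 siRNA, with control library c again the highest.

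**Figure D3:**
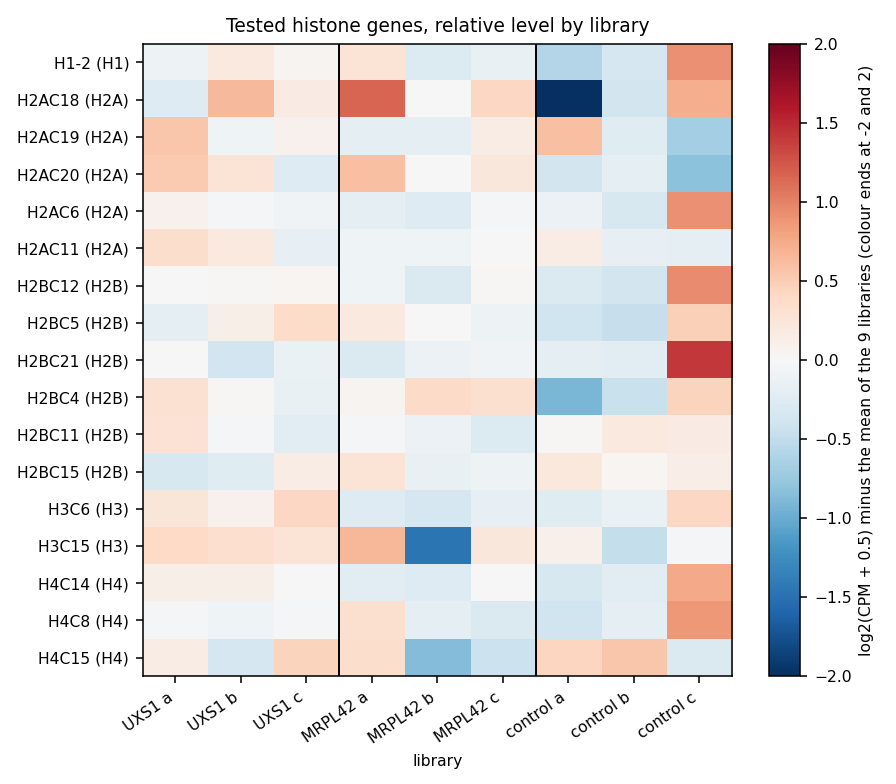
log2(CPM + 0.5) of the 17 tested members in each library, minus the mean of the 9 libraries (colour; red higher, blue lower). Control library c is red for H1-2, H2AC6, H2BC12, H2BC21, H4C14 and H4C8 and blue for H2AC20. Of the near-identical copies, H2AC18 is red and H2AC19 blue in control library c, and H2AC18 is darkest in control library a.

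Over the 17 tested members, the groups separated for 0 or 1 member in each direction. Such counts are too small to set the members apart from all tested genes. All UXS1 siRNA libraries lay above all control siRNA libraries for 1 member, H3C15, where 15.3% of all tested genes did so, and below them for 0 members, where 10.9% of all genes did. All MRPL42 siRNA libraries lay above the controls for 1 member, H2AC20 (11% of all genes), and below them for 1, H2BC11 (10.5% of all genes). Control library c, in contrast, was the highest of all 9 libraries for 9 of the 17 members, where it was so for 31.6% of all tested genes, and the lowest for 3 (H2AC20, H2AC11 and H2AC19), where it was so for 31.8%. The ratio of control library c to the mean of a and b had a median of 2.05 over the 17 members and exceeded 1.5 for 10 of them, against a median of 0.996 over all tested genes, of which 8.71% exceeded 1.5.

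The medians against control siRNA changed sign without control library c. The median log2 fold change of the 17 members was -0.09 in UXS1 siRNA (8 of 17 above 0) and -0.20 in MRPL42 siRNA (5 of 17 above 0), beside medians over all genes of -0.0047 and -0.011. Without control library c the medians of the same 17 members were 0.35 (13 above 0) and 0.13 (11 above 0). In that fit 19 members were tested and 0 were called, where 201 of 12747 genes (1.58%) were called in UXS1 siRNA against control siRNA and 169 (1.33%) in MRPL42 siRNA against control siRNA. The unadjusted p was below 0.05 for 8 and 6 of the 19 members and for 2442 and 2498 of all genes. H2BC4 stood at 1.296 in UXS1 siRNA (SE 0.40, adjusted p = 0.137) and 1.57 in MRPL42 siRNA (SE 0.39, adjusted p = 0.0831). H2BC12 stood at 0.35 in UXS1 siRNA (SE 0.10, adjusted p = 0.124) and 0.22 in MRPL42 siRNA (SE 0.10, adjusted p = 0.263). H3C10, which did not pass the filter with all 9 libraries and was tested in this fit, had 0.229, 0.134 and 0.324 CPM in UXS1 siRNA libraries, 0.452, 0.517 and 0.528 CPM in MRPL42 siRNA libraries, and 0.568, 0.706 and 0.371 CPM in control siRNA libraries. Its log2 fold change was -1.53 in UXS1 siRNA (SE 0.43, adjusted p = 0.115) and -0.35 in MRPL42 siRNA (SE 0.37, adjusted p = 0.675). Both comparisons share the control libraries.

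**Figure D4:**
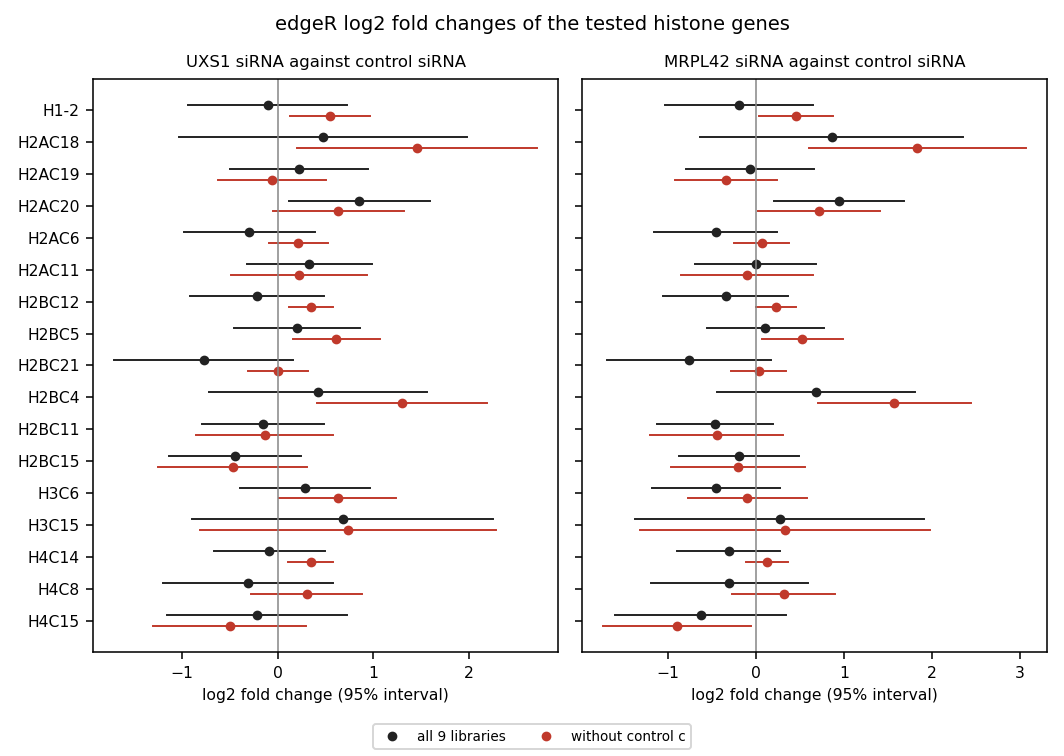
edgeR log2 fold changes (x axis) with 95% intervals of the 17 tested members against control siRNA, for UXS1 siRNA (left) and MRPL42 siRNA (right), with all 9 libraries in black and without control library c in red. H1-2, H2AC6, H2BC12, H2BC21, H4C14 and H4C8 lie below 0 in black and above 0 in red in both panels.

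Library weights, which give a library that stands apart less influence, called a few members in limma-voom. H2BC4 rose in UXS1 siRNA (log2 fold change 1.27, adjusted p = 0.0408) and in MRPL42 siRNA (1.48, adjusted p = 0.021), and H2AC18 rose in MRPL42 siRNA (2.02, adjusted p = 0.0359). H2AC18 held 6.63% of the counts of its pair with H2AC19 in control library a, and the pair summed had an edgeR log2 fold change of 0.41 (adjusted p = 0.252). Library weights called 1315 (10.4%) and 1897 (15%) of all genes, and H2BC4 rests on 5.0 to 26.9 counts per library.

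Histone transcripts are short, and short transcripts differed between libraries. For the 725 tested genes whose transcripts are under 1000 bases, the mean log2 CPM relative to the 9-library mean was 0.15, 0.22 and 0.04 in UXS1 siRNA libraries, 0.38, -0.15 and 0.22 in MRPL42 siRNA libraries, and -0.21, -0.28 and -0.39 in control siRNA libraries. With an offset for transcript length in each library the member medians against control siRNA were -0.43 in UXS1 siRNA and -0.60 in MRPL42 siRNA, with 0 members called. All 17 log2 fold changes were lower with this offset, with shifts of -0.77 to -0.03 in UXS1 siRNA and -0.80 to -0.03 in MRPL42 siRNA. H2BC12 stood at -0.99 and -1.14 and H4C14 at -0.66 and -0.90.

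Between the siRNAs against UXS1 and MRPL42, the members differed little. The log2 fold changes set these groups against each other, but all 9 libraries entered the filter, the scaling and the shared estimate of spread. No member and no gene was called (0 of 17 and 0%), 11 of the 17 members lay above 0 and the median log2 fold change was 0.13, beside -0.0038 over all genes. H3C6 had the largest difference (0.74, SE 0.32, 95% interval 0.03 to 1.46, unadjusted p = 0.0436, edgeR adjusted p = 0.9998) and H2AC18 the lowest value (-0.39, 95% interval -1.86 to 1.08). Of all genes, 218 had an unadjusted p below 0.05, and DESeq2 and limma-voom called 0 genes. With only the 6 libraries of these groups, the members' median SE was 0.25, against 0.32 with all 9. In that edgeR fit 579 of 12455 genes had an unadjusted p below 0.05, and 0 were called. Without control library c, 3 of 19 members and 682 of 12747 genes did, again with 0 called.

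Reads of near-identical copies could be given to either gene, and the deposited split varied. Of the 69 genes, 15 shared at least 50% of their transcript's 50-base stretches with 1 other gene, among them 61.4% for H2BC12 with H2BFS, a related H2B sequence. H2AC18 and H2AC19 (chromosome 1, 149842218 to 149842750 and 149851061 to 149851594) shared 100% and 97.1%, H3C14 and H3C15 100%, and H4C14 and H4C15 97.5% and 97.2%. H2AC18 received between 6.63% (control library a) and 72.3% (control library c) of the counts of its pair. H3C15 received all counts of its pair in 8 libraries and H3C14 all 20 in MRPL42 siRNA library b. H4C14 received 76.6% to 93.1%. On its own H2AC18 had 6.14, 11.9 and 8.39 CPM in UXS1 siRNA libraries, 17.3, 7.46 and 10.1 CPM in MRPL42 siRNA libraries, and 0.890, 5.67 and 12.7 CPM in control siRNA libraries (log2 fold change 0.47 and 0.86, SE 0.67 each, adjusted p = 0.739 and 0.471). H4C15 ranged from 1.51 to 2.97, 0.893 to 2.77 and 1.59 to 3.25 CPM in UXS1, MRPL42 and control siRNA. H2AC19 ranged from 7.595 to 12.1, 6.96 to 9.05 and 4.85 to 12.5 CPM in the same groups, and all 3 groups overlapped for these genes. H3C15 overlaps H4C15 and H4C14 overlaps H3C14 in the annotation, and no source used here gives the strand of the libraries, so values of these genes are uncertain.

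Summed over the copies, the pairs were steadier. H2AC18 with H2AC19 had 18.2, 19.5 and 17.0 CPM in UXS1 siRNA libraries, 24.3, 14.4 and 19.1 CPM in MRPL42 siRNA libraries, and 13.4, 12.4 and 17.5 CPM in control siRNA libraries, and the groups overlapped. The log2 fold change was 0.34 in UXS1 siRNA (SE 0.19, adjusted p = 0.378) and 0.41 in MRPL42 siRNA (SE 0.19, adjusted p = 0.252). H3C14 with H3C15 had 1.32, 1.25 and 1.17 CPM in UXS1 siRNA libraries, 1.68, 1.29 and 1.11 CPM in MRPL42 siRNA libraries, and 0.980, 0.489 and 0.849 CPM in control siRNA libraries. For this pair every UXS1 and MRPL42 siRNA library lay above every control library, on 9 to 28 counts per library. Of all tested genes, 15.3% lay above the controls in every UXS1 siRNA library and 11% in every MRPL42 siRNA library. The share that did both was not counted. The log2 fold changes of the pair were 0.68 (SE 0.29, adjusted p = 0.273) and 0.80 (SE 0.30, adjusted p = 0.194). H4C14 with H4C15 had 15.8, 15.1 and 15.3 CPM in UXS1 siRNA libraries, 13.5, 11.3 and 13.9 CPM in MRPL42 siRNA libraries, and 12.8, 13.9 and 22.9 CPM in control siRNA libraries. Its log2 fold changes were -0.10 and -0.36 (adjusted p = 0.812 and 0.334), and control library c held the highest value.

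**Figure D5:**
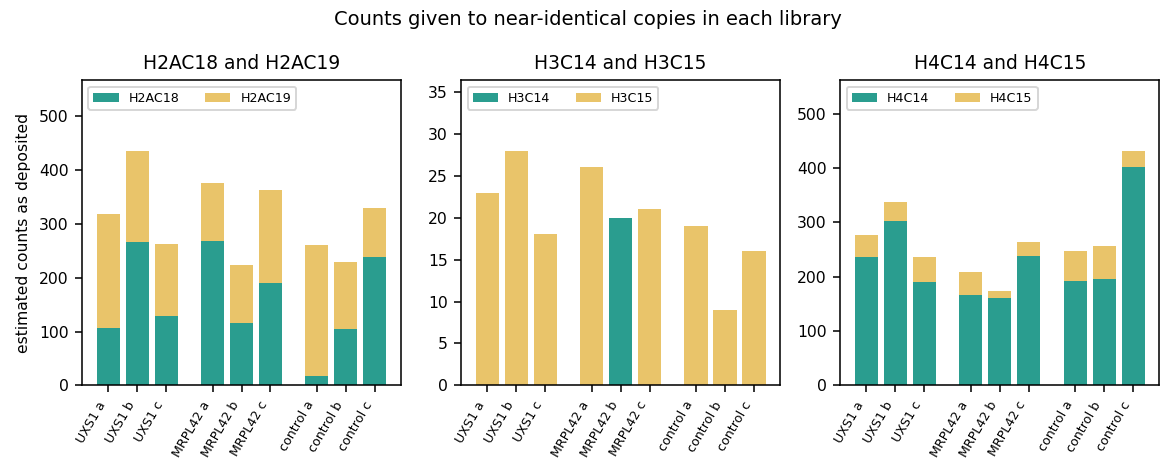
Estimated counts (y axis) given to each gene of the 3 near-identical pairs, stacked, in each library. The division within H2AC18 and H2AC19 changes from library to library, while the summed counts of the pair lie between 223 and 436.

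Many histone genes start back to back and share the stretch between them. By RefSeq, 25 members formed 13 such neighbours on opposite strands with 193 to 247 bases between their starts, 12 of them an H2A with an H2B gene. H2BC7 was counted with both H2AC7 and H3C4, which RefSeq starts at the same base. Neighbours could stand at very unequal levels, as H2BC12 averaged 88.6 TPM and H2AC12, which starts 247 bases away, 0.142 TPM. Of the 3 pairs with both genes tested, H2BC4 and H2AC6 were both high in control library c (3.56 and 2.32 times the CPM of a and b), H2BC11 and H2AC11 were not (1.06 and 0.805 times), and H2BC21 and H2AC20 went opposite ways (3.22 and 0.582 times).

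The stretches before H2BC12, H2BC21 and H4C14, which are among the members highest in control library c, are printed as examples, and H4C14 does not stand for the H4 promoters, as the motif counts after them show. They are the 250 bases before the RefSeq start on GRCh38.p14, on the gene's strand, and capitals mark TATAAA (the TATA box), CCAAT (the CCAAT box) and the octamer ATTTGCAT in either direction.
H2BC12, chr6:27146859-27147108, minus strand: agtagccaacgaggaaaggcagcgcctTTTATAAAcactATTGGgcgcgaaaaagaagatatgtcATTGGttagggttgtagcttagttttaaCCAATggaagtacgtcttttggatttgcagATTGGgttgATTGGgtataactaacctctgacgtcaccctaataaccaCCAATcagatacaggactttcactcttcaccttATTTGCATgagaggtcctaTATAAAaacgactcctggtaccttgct
H2BC21, chr1:149886683-149886932, minus strand: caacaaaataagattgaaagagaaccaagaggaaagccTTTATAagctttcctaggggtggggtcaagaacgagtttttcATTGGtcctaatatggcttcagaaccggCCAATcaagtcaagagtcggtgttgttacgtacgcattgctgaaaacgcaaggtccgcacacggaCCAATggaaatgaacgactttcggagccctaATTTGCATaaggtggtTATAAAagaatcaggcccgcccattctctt
H4C14, chr1:149832407-149832656, plus strand: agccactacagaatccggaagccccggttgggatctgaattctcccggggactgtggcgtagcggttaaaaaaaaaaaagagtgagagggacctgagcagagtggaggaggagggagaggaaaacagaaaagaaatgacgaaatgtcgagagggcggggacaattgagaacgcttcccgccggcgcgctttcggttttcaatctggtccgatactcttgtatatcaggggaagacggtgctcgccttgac

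Promoters of 64 members were in the RefSeq table, as windows from 250 bases before to 50 bases after the start, and each motif was searched on both strands. TATAAA, the core of the TATA box, was in 65.6% of them and in 9.61% of the 15424 promoters of all genes in the table. By class it was in 3 of 6 H1, 12 of 16 H2A, 12 of 18 H2B, 8 of 11 H3 and 7 of 13 H4 promoters. Occurrences of it on opposite strands can overlap, as in TTTATAAA before H2BC12. CCAAT was in 84.4% against 36.6%, in all 6 H1, 16 H2A, 18 H2B and 11 H3 promoters and in 3 of 13 H4 promoters (23.1%). ATTTGCAT, the octamer bound by OCT1 at H2B genes, was in 40.6% against 1.69%: 14 of 18 H2B, 11 of 16 H2A, 1 of 11 H3 and 0 H1 or H4 promoters held it. The H4C14 window holds none of the 3. A match is a description of the letters and no measure of binding.

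Genes of histone supply were measured beside the members, with lists chosen with earlier results known. No gene of any list passed an edgeR adjusted p of 0.05 in any comparison, with all libraries or without control library c. The 24 S-phase genes, which act in replication when histone genes are on, stood at -0.34 relative to the 9-library mean (log2 CPM) in control library c and at 0.01 to 0.08 in the other 8 libraries, so the list was lowest in the library with the highest summed H1, H2B and H4 levels. Their part in the histone values was not tested. PCNA, the replication clamp, named after its values were seen, had 329, 307 and 333 CPM in UXS1 siRNA libraries, 328, 331 and 310 CPM in MRPL42 siRNA libraries, and 303, 312 and 235 CPM in control siRNA libraries. The median log2 fold change of the S-phase list was 0.11 in UXS1 siRNA (22 of 24 above 0) and 0.14 in MRPL42 siRNA (21 of 24), and 0.02 and 0.05 without control library c. GINS2, of the replicative helicase, averaged 58.7 ± 2.43 CPM in UXS1 siRNA, 58.0 ± 3.74 CPM in MRPL42 siRNA and 43.8 ± 8.09 CPM in control siRNA (SD, n = 3 each; log2 fold change 0.42 and 0.41, adjusted p = 0.178 and 0.145). TYMS, thymidylate synthase, stood at 0.28 and 0.32 (adjusted p = 0.293 and 0.22).

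Genes that process, export and degrade histone mRNA had medians near 0 (-0.0090 in UXS1 siRNA and -0.01 in MRPL42 siRNA, over 22 genes, with 0 past the threshold). SNRPG, a core protein of snRNPs, and LSM10, of the U7 snRNP, had the smallest p. SNRPG averaged 46.8 ± 6.71 CPM in UXS1 siRNA, 51.7 ± 11.8 CPM in MRPL42 siRNA and 28.7 ± 1.62 CPM in control siRNA (SD, n = 3 each; log2 fold change 0.71 and 0.85, adjusted p = 0.171 and 0.135). LSM10 averaged 25.6 ± 1.35, 24.8 ± 5.602 and 15.4 ± 2.501 CPM in the same groups (0.73 and 0.69, adjusted p = 0.171 and 0.135). With the length correction SNRPG stood at 0.18 and 0.29 and LSM10 at 0.36 and 0.28 (adjusted p = 0.321, 0.203, 0.232 and 0.256). DESeq2, which called 460 and 677 of all genes, called both genes in both comparisons. All UXS1 siRNA libraries lay above all control siRNA libraries for 6 of the 22 genes (15.3% of all tested genes did so), and all MRPL42 siRNA libraries for 7 (11% of all genes). SNRPG, LSM10, SNRPB, SNRPD3, SNRPE and SNRPF, which were named by this count, did so in both comparisons, and SLBP in MRPL42 siRNA. SLBP itself, named after its values were seen, had 111, 107 and 113 CPM in UXS1 siRNA libraries, 110, 116 and 110 CPM in MRPL42 siRNA libraries, and 109.7, 106 and 103 CPM in control siRNA libraries, with log2 fold changes of 0.06 and 0.08 (adjusted p = 0.625 and 0.449).

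The 7 transcription genes and the 12 chaperones also had 0 members past the threshold. CDK2 stood at 0.12 in UXS1 siRNA (adjusted p = 0.488) and E2F1 at 0.18 in MRPL42 siRNA (adjusted p = 0.371). NPAT stood at -0.25 in MRPL42 siRNA (adjusted p = 0.211), and CCNE2, cyclin E2, at 0.31 in UXS1 siRNA (adjusted p = 0.186). ASF1B, a chaperone that hands H3 and H4 to assembly factors, stood at 0.30 in UXS1 siRNA (adjusted p = 0.241) and 0.29 in MRPL42 siRNA (adjusted p = 0.223). ASF1A stood at -0.23 in MRPL42 siRNA (adjusted p = 0.184) and HIRA at -0.10 in UXS1 siRNA (adjusted p = 0.518). Medians over the lists were 0.11 and 0.07 for transcription and 0.02 and 0.05 for chaperones. Without control library c they were 0.0041 and 0.06 for transcription and -0.0023 and -0.05 for chaperones. None of the 8 nuclear or non-polyadenylated RNAs of the list was in the table, so carry-over of RNA without poly(A) was not analysed here.

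The replication-independent histones, which mostly replace canonical histones outside S phase and whose mRNAs are mostly polyadenylated, summed to the lowest of the 9 values in control library c (3752 TPM). The H3.3 genes differed from that sum, as H3-3B was highest of the 9 there (1616 TPM, against 1520 and 1540 TPM in control libraries a and b) and H3-3A had 513 TPM there, against 462.7 and 463.3 TPM. Of the 12 genes 10 were tested, with 0 past the threshold and medians of 0.14 in UXS1 siRNA and 0.15 in MRPL42 siRNA. In each comparison 9 of 10 lay above 0, where 48.99% and 47.95% of all tested genes did. Without control library c the medians were 0.02 (6 of 10 above 0) and 0.09 (9 of 10 above 0). H2AJ had 301, 340.2 and 256 TPM in UXS1 siRNA libraries, 403, 226 and 342 TPM in MRPL42 siRNA libraries, and 253, 219 and 159 TPM in control siRNA libraries (log2 fold change 0.61 and 0.77, edgeR adjusted p = 0.248 and 0.156, and 0.11 and 0.20 with the length correction; DESeq2 adjusted p = 0.145 and 0.0389). H2AX, which is phosphorylated at DNA breaks, stood at 0.26 and 0.38 (adjusted p = 0.329 and 0.178). The summed level of these 12 genes was 12.7 to 13.5 times that of the 69 genes in UXS1 siRNA, 13.2 to 14.9 times in MRPL42 siRNA, and 16.3, 16.2 and 7.76 times in control libraries a, b and c.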

How the data were processed

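Poly(A) RNA of 9 HCCLM3 libraries (3 per siRNA group) was sequenced. The table the authors deposited gives estimated counts per gene (83.6% to 84.9% of the values above 0 whole). fastp, Bowtie2, HISAT2, edgeR and hg38 are named, per the submitters' processing notes, with no role or version; no source used here gives the counting program, its annotation or the strand, so how reads of near-identical copies were divided is unknown. Library totals were 15265959 to 22400560 estimated counts, and 9 other per-sample columns were left unused. Columns spelled USX1 were read as UXS1, the only label they match.

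The estimated counts were rounded and tested with edgeR 4.0.16 in R 4.3.3 (quasi-likelihood, TMM, filterByExpr with a minimum count of 10, all 9 libraries, Benjamini-Hochberg over 12657 genes, threshold 0.05). The test had been planned for raw counts. Standard errors and 95% intervals come from the same fit. CPM uses TMM-adjusted totals. TPM was computed from the deposited counts and the median length of each gene's principal GENCODE 29 transcripts (271 genes without a length, at most 0.196% of counts, left out). Single values were compared with exact two-sided permutation tests (scipy 1.17.1). Alternatives were DESeq2 1.42.0, limma-voom 3.58.1 with library weights, other size factors, no filter, decimals kept, the 6 libraries compared alone, a correction for transcript length (lowess, span 0.3), leaving out each library and, added after seeing the data, identical copies summed. The scripts were tested on simulated data.

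Members and gene lists were chosen with earlier results of these data known. Every tested member was eligible to be named; from each list, genes past the threshold or else the 2 with the smallest p in a comparison were named. Stem-loops and copies came from GENCODE 29 (65 members matched by gene ID, 4 by synonym and position), promoters and gene positions from RefSeq (GRCh38.p14).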

Additional observations from a re-analysis of the deposited data

How the results depend on the processing

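No paired analysis was possible because the columns carry letters that no label ties to the repeat numbers. Of 975 log2 fold changes under alternatives, 908 kept their direction and their side of the threshold, 42 changed direction, all of members, and 25 newly passed; 3 of the 25 were of members, all with library weights. The causes were not tested.

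In UXS1 siRNA against control siRNA, 2 genes were called, against 253 with only the 6 libraries compared, 460 by DESeq2, 1315 with library weights, 8 with the length correction, and 0 to 355 when 1 library was left out (355 without MRPL42 siRNA library b, 201 without control library c, 0 without any of the other 7). In MRPL42 siRNA against control siRNA, 0 genes were called, against 677 by DESeq2, 1897 with library weights, 2 with the length correction, and 0 to 810 when 1 library was left out (810 without MRPL42 siRNA library b, 169 without control library c). Library weights called 1 and 2 members. The median log2 fold change of the members in UXS1 siRNA was 0.32 with library weights, -0.43 with the length correction and -0.12 to 0.30 when 1 library was left out. In MRPL42 siRNA it was 0.14, -0.60 and -0.48 to 0.13. Per library, a median of 46 members had at least 1 count, 18 at least 10 counts and 21 at least 1 TPM.

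Direction changed with library weights, in UXS1 siRNA, for H1-2 (0.44), H2AC6 (0.24), H2BC12 (0.32), H2BC21 (0.024), H4C14 (0.32) and H4C8 (0.27), and in MRPL42 siRNA for H1-2 (0.37), H2AC6 (0.12), H2BC12 (0.27), H2BC21 (0.019), H4C14 (0.16), H4C8 (0.14) and H2AC11 (0.016). With the length correction, UXS1 siRNA gave -0.16 for H2AC18, -0.32 for H2AC19, -0.14 for H2BC4 and -0.32 for H2BC5, and MRPL42 siRNA gave -0.44 for H2BC5. Without a filter H2AC11 in MRPL42 siRNA stood at 0.0012.

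Leaving out 1 library at a time gave, in UXS1 siRNA, -0.39 to 0.55 for H1-2, -0.53 to 0.22 for H2AC6, -0.44 to 0.35 for H2BC12, -1.06 to 0.0047 for H2BC21, -0.28 to 0.35 for H4C14 and -0.59 to 0.30 for H4C8, each highest without control library c. It gave -0.048 to 1.46 for H2AC18 (lowest without control library a), -0.062 to 0.70 for H2AC19 (lowest without control library c) and -0.50 to 0.0052 for H4C15 (highest without UXS1 siRNA library b). In MRPL42 siRNA it gave -0.48 to 0.45 for H1-2, -0.69 to 0.063 for H2AC6, -0.57 to 0.22 for H2BC12, -1.04 to 0.032 for H2BC21, -0.51 to 0.13 for H4C14 and -0.58 to 0.31 for H4C8, each highest without control library c. It gave -0.34 to 0.40 for H2AC19 and -0.10 to 0.20 for H2AC11 (both highest without control library a), -0.080 to 0.53 for H2BC5 (lowest without control library b) and -0.40 to 0.83 for H3C15 (lowest without MRPL42 siRNA library a). H2AC18 in UXS1 siRNA against MRPL42 siRNA stood at -0.69 to 0.0052, highest without MRPL42 siRNA library a.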
